A study of Mus musculus with 6 samples.

Results

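The 9 genes described here encode m6A readers, proteins that bind RNA carrying N6-methyladenosine or RNA whose folding that mark alters. They were chosen by name, as the rows for Ythdf1, Ythdf2, Ythdf3, Ythdc1, Ythdc2, Hnrnpa2b1, Hnrnpc, Prrc2a and Elavl1, and all 9 were found among 23337 gene rows. The RNA was nuclear and came from neural precursors, dividing cells cultured from the dorsal forebrain of mouse embryos at E13.5 and grown with EGF and basic FGF at 20 ng/ml each to passage 6 to 7. The study set wild-type lines (Fmr1 WT, lines 3, 8 and 19) against Fmr1 knockout lines (Fmr1 KO, lines 3, 13 and 16), with 1 library a line and no other treatment, and the lines of a genotype were described as independent. No source used here gives the mouse strain or how the Fmr1 allele was disrupted.

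The mark m6A is the most common internal modification of messenger RNA. A nuclear complex around METTL3 and METTL14 writes it, FTO and ALKBH5 can remove it, and readers carry out what follows: splicing and export in the nucleus, translation and decay in the cytoplasm. FMRP, the RNA-binding protein made from Fmr1, has itself been reported to bind m6A-marked messages and to take part in their export from the nucleus of mouse neural precursors. Among the readers, YTHDF1, YTHDF2, YTHDF3, YTHDC1 and YTHDC2 hold a YTH domain that grips the methyl group directly. HNRNPA2B1 and HNRNPC are abundant nuclear RNA-binding proteins, PRRC2A is a large proline-rich protein, and ELAVL1 (HuR) stabilises messages that carry AU-rich elements.

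Total counts ran from 18702738 to 26789522 per library, and 13925 genes were tested. Lines of a genotype were not copies of one library: chi-square divided by its degrees of freedom was 10.8 to 62.8 between WT lines and 16.4 to 91.5 between KO lines. Fmr1 measured 223, 269.8 and 274 CPM (counts relative to the library total, scaled by TMM, the trimmed mean of M values) in WT lines 3, 8 and 19. It measured 371, 188.2 and 153 CPM in the libraries labelled KO line 3, KO line 13 and KO line 16. KO line 3 thus lay above every WT library, and KO lines 13 and 16 lay below every WT library. Between the labelled groups Fmr1 did not pass (log2 fold change -0.105, SE 0.29, edgeR adjusted p = 0.795). With the allele not described, the Fmr1 RNA level that a KO label should give is not known. Since a gene total hides which exons carry the reads, groups are named below by label (labelled KO, WT). Xist was at 15465 to 20508 CPM in 3 libraries (WT lines 3 and 8, KO line 3) and at 1.67 to 81.8 CPM in the other libraries, and WT line 19 held 18739 CPM of the ribosomal RNA precursor Rn45s against 1078 to 2568 CPM elsewhere. All 14 neural precursor markers listed reached a mean of 1 CPM, and Nes was at 1786 to 2869 CPM.

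Of the 9 readers, Prrc2a and Ythdf1 rose in the libraries labelled KO, by 1.35-fold and 1.24-fold, and 0 fell; over all tested genes 42.3% were called, 21.8% higher and 20.4% lower. Ythdf3 and Ythdc2 were well below WT in KO lines 13 and 16 but above every WT library in KO line 3, and neither passed the test between the labelled groups. The start regions of Prrc2a and Ythdf1, the pair that rose, are shown with that of Ythdf2, a close paralog of Ythdf1 that did not pass the test. The sequences are RefSeq's, in build GRCm38.p6, for 300 bases from 250 before to 50 after the annotated start on the minus strand, and 7 of the 9 members matched that table. Capitals mark matches, on either strand, to the GC box GGGCGG, the CCAAT box CCAAT, the TATA box TATAAA, the E-box CACGTG, the octamer ATGCAAAT and the cyclic AMP element TGACGTCA. These motifs were chosen with the sequences in view.
Prrc2a, chr17:35164828-35165127: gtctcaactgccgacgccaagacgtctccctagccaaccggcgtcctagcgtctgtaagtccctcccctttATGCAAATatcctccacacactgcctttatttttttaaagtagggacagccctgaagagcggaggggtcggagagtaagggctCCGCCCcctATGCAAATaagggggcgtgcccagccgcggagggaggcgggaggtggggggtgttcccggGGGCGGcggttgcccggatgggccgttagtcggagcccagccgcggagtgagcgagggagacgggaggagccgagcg
Ythdf1, chr2:180920887-180921186: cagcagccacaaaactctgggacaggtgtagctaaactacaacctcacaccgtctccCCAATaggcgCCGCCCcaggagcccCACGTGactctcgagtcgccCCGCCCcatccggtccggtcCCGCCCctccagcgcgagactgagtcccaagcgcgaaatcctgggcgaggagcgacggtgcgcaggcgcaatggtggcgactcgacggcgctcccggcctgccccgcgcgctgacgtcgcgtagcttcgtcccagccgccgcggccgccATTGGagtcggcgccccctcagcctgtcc
Ythdf2, chr4:132212207-132212506: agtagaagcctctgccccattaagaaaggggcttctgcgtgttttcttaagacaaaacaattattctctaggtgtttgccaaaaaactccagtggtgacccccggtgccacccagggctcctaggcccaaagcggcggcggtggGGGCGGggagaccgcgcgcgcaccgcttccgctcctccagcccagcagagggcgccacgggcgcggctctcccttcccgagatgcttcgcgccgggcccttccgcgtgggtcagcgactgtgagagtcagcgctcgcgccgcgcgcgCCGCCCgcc
The Prrc2a region held 2 octamers and 2 GC boxes, the Ythdf1 region 3 GC boxes, 2 CCAAT boxes and 1 E-box, and the Ythdf2 region 2 GC boxes. Over 32851 RefSeq promoter windows of the same length, 35.7% held a GC box, 37.4% a CCAAT box, 13.6% a TATA box, 7.15% an E-box, 1.74% an octamer and 1.79% the cyclic AMP element. The octamer and E-box matches are descriptions of these letters and not evidence of binding, and 0 motifs of this list other than the GC box were shared by the Prrc2a and Ythdf1 regions.

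Prrc2a (ENSMUSG00000024393.14, chromosome 17, 35149076 to 35164897 in GRCm38) had the largest log2 fold change of the 9 with all 6 libraries, though not without KO line 3 or with GC and length trends removed. PRRC2A is known in mouse for binding the methylated message of Olig2 in oligodendrocyte precursors. Prrc2a measured 733.5, 729.8 and 867 CPM in WT lines 3, 8 and 19, and 913.5, 1071 and 1168 CPM in KO lines 3, 13 and 16. Every library labelled KO lay above every WT library, with KO line 3 nearest to WT and WT line 19 nearest to KO. The WT mean was 777 ± 78.1 CPM and the labelled KO mean 1051 ± 128 CPM (SD, n = 3 each). The log2 fold change was 0.44 (SE 0.13) with a 95% interval of 0.14 to 0.74, and edgeR gave an adjusted p of 0.0265 over all tested genes. In bulk RNA a change in the mixture of cells and a change per cell cannot be told apart. The call was lost without WT line 3, WT line 8, KO line 13 or KO line 16 (edgeR adjusted p from 0.0745 to 0.131). It was also lost when trends with GC content and transcript length were removed, with a log2 fold change of 0.21 (edgeR adjusted p = 0.0547); the Prrc2a transcript had the highest GC content of the 9, at 60.6% against 37.6% to 49.1% in the others.

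Among the cytoplasmic YTHDF proteins, YTHDF1 is best known for promoting translation, and in the mouse nervous system for roles in learning and axon guidance. Ythdf1 (ENSMUSG00000038848.14, chromosome 2, 180904377 to 180920949) measured 72.2, 75.9 and 70.5 CPM in WT lines 3, 8 and 19 and 94.1, 90.0 and 86.8 CPM in KO lines 3, 13 and 16. All 3 libraries labelled KO were above all 3 WT libraries, and both groups were tight. The log2 fold change was 0.31 (SE 0.10, 95% interval 0.09 to 0.53, edgeR adjusted p = 0.031). The call held with GC and length trends removed (0.27, edgeR adjusted p = 0.0154), but was lost without WT line 3, WT line 8, WT line 19 or KO line 13 (edgeR adjusted p from 0.0626 to 0.147). Leaving Rn45s, Xist, ribosomal protein, histone and small RNA genes out of the table also ended it (edgeR adjusted p = 0.0642).

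YTHDF2 recruits the CCR4-NOT deadenylase and so speeds the decay of marked messages, and its loss in mouse embryos disturbs the division of neural precursors. Ythdf2 (ENSMUSG00000040025.17, chromosome 4, 132184912 to 132212303) measured 49.0, 54.8 and 49.3 CPM in WT lines 3, 8 and 19 and 62.0, 51.6 and 55.4 CPM in KO lines 3, 13 and 16. The groups overlapped, with WT line 8 above KO line 13. Its log2 fold change of 0.14 (SE 0.11) missed the threshold (edgeR adjusted p = 0.334), and its 95% interval, -0.11 to 0.39, reached from a small fall to a rise of 1.31-fold.

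YTHDF3 acts together with both other YTHDF proteins. Ythdf3 (ENSMUSG00000047213.14, chromosome 3, 16183212 to 16217037) measured 328.5, 342.5 and 323.5 CPM in WT lines 3, 8 and 19, and 429, 224 and 204 CPM in KO lines 3, 13 and 16. WT was tight and the libraries labelled KO were not: KO line 3 lay above every WT library and KO lines 13 and 16 below. The means were 331.5 ± 9.87 and 286 ± 124 CPM (SD, n = 3 each), and the log2 fold change of -0.21 (SE 0.25) missed the threshold (edgeR adjusted p = 0.52). Without KO line 3 it was -0.63 (edgeR adjusted p = 0.000145), but without KO line 13 it was -0.063 and without KO line 16 it was -0.016 (edgeR adjusted p = 0.881 and 0.964). With GC and length trends removed it was 0.045 (edgeR adjusted p = 0.702); the Ythdf3 transcript had a GC content of 38.4%.

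**Figure D1:**
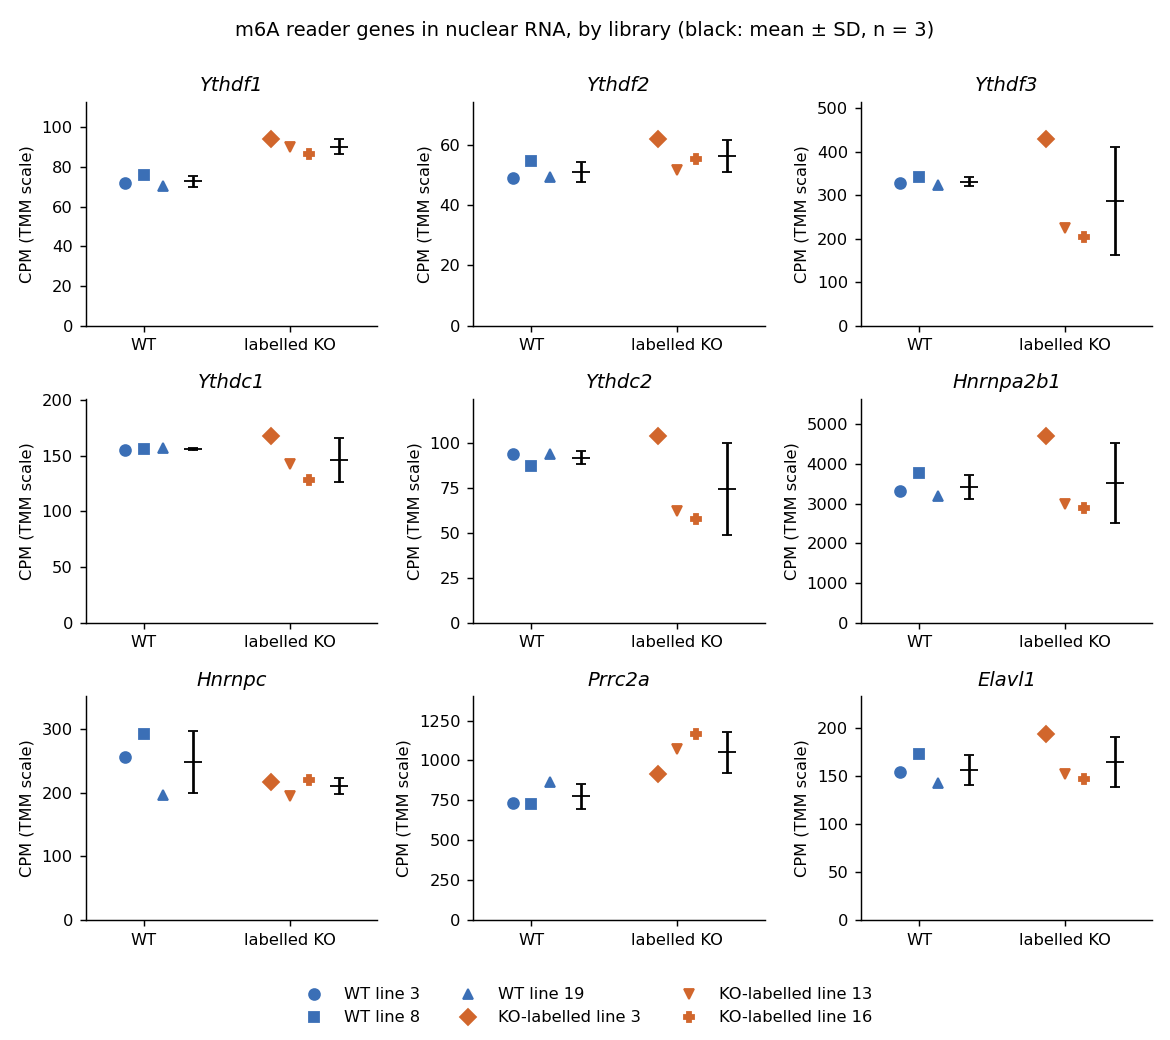
Level of each of the 9 m6A reader genes in CPM, with 1 point per library and the mean ± SD of each genotype (n = 3) in black; each vertical axis starts at 0. Prrc2a and Ythdf1 show all libraries labelled KO above all WT libraries, while in Ythdf3 and Ythdc2 the diamond of KO line 3 stands above WT and KO lines 13 and 16 stand below.

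The balance among the 3 YTHDF genes set KO lines 13 and 16 apart from the other 4 libraries, a split read from these same values. How many other gene pairs split the libraries in this way was not counted. The ratio of Ythdf3 to Ythdf1 counts was 4.55, 4.51 and 4.59 in WT lines 3, 8 and 19 and 4.56 in KO line 3, against 2.49 in KO line 13 and 2.35 in KO line 16. The exact 95% binomial intervals (Clopper-Pearson), which cover counting error only, ran from 4.27 to 4.87 over the first 4 libraries and from 2.23 to 2.62 over the other pair. Between the labelled groups the ratio averaged 4.55 ± 0.037 in WT and 3.14 ± 1.24 with KO labels (SD, n = 3 each, exact permutation p = 0.3). Per kilobase of exon, Ythdf3 made up 65.3%, 64.7% and 65.3% of the YTHDF sum in WT lines 3, 8 and 19 and 65.6%, 52.1% and 49.9% in KO lines 3, 13 and 16. Ythdf1 made up 23.0% to 23.2% in WT and 23.3%, 33.8% and 34.3% in KO lines 3, 13 and 16. Ythdf2 held 11.4% to 12.1% in WT and 11.1%, 14.1% and 15.9% in those KO lines. Neither the ratio nor the shares were corrected for transcript GC content, which was 38.4% for Ythdf3 and 49.1% for Ythdf1.

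Between the labelled groups (KO minus WT) the mean share differed by -9.24 percentage points for Ythdf3, 7.30 for Ythdf1 and 1.94 for Ythdf2. None passed the exact permutation test (two-sided p = 0.4, 0.1 and 0.4), in which 3 libraries against 3 cannot give a p below 0.1. Without KO line 3 the differences were -14.1, 10.9 and 3.22 percentage points (exact permutation p = 0.1 each, the smallest that 3 against 2 can give). Without KO line 16 the Ythdf2 difference was 0.842 (exact permutation p = 0.7). In total the 3 genes summed to 443 to 473 CPM in WT and in KO lines 3, 13 and 16 to 585, 366 and 346.5 CPM.

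**Figure D2:**
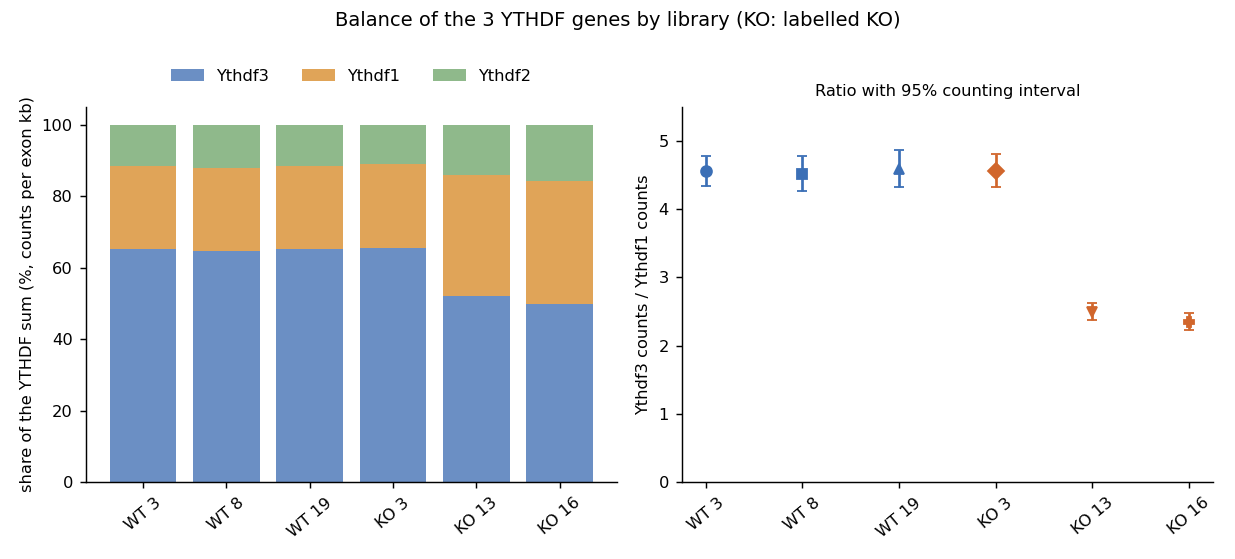
Left, share of Ythdf3, Ythdf1 and Ythdf2 in their sum for each library, in percent of counts per exon kilobase; right, ratio of Ythdf3 to Ythdf1 counts with its exact 95% counting interval. The WT libraries and KO line 3 sit at ratios of 4.51 to 4.59, and KO lines 13 and 16 at 2.49 and 2.35.

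YTHDC1 is the nuclear YTH protein, which guides splicing and hands marked messages to the export factor NXF1. Ythdc1 (ENSMUSG00000035851.14, chromosome 5, 86804221 to 86836659) measured 155, 156 and 157 CPM in WT lines 3, 8 and 19 and 167, 143 and 128 CPM in KO lines 3, 13 and 16. As with Ythdf3, KO line 3 was above the narrow WT range and KO lines 13 and 16 below it. The log2 fold change of -0.10 (SE 0.12, 95% interval -0.36 to 0.17) did not pass (edgeR adjusted p = 0.535), and with GC and length trends removed it turned positive, at 0.26 (edgeR adjusted p = 0.0935). It ranged from -0.20 without KO line 3 to -0.0013 without KO line 16. Its exons share 631 bases with those of the noncoding gene Gm43055 on the same strand.

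YTHDC2 combines a YTH domain with an RNA helicase and is known above all for its need in meiosis in the mouse germ line. Ythdc2 (ENSMUSG00000034653.11, chromosome 18, 44827746 to 44889724) measured 93.9, 87.2 and 93.7 CPM in WT lines 3, 8 and 19 and 103, 62.0 and 57.3 CPM in KO lines 3, 13 and 16. KO line 3 again lay above WT and KO lines 13 and 16 below. The log2 fold change of -0.30 (SE 0.21) missed the threshold (edgeR adjusted p = 0.263), and without KO line 3 it was -0.61 (edgeR adjusted p = 0.000198). Without KO line 13 or KO line 16 it was -0.19 or -0.14 (edgeR adjusted p = 0.564 and 0.594). In that comparison without KO line 3, Ythdf3 and Ythdc2 were the 2 members called lower, where 27.8% of all tested genes were.

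HNRNPA2B1 packages RNA in the nucleus and aids the processing of primary microRNAs. Hnrnpa2b1 (ENSMUSG00000004980.16, chromosome 6, 51460932 to 51469894) measured 3325, 3766 and 3198 CPM in WT lines 3, 8 and 19 and 4699, 3007 and 2898 CPM in KO lines 3, 13 and 16. KO line 3 was the highest library and KO lines 13 and 16 the lowest. Its log2 fold change of 0.044 (SE 0.20, 95% interval -0.42 to 0.50, edgeR adjusted p = 0.882) turned to -0.21 without KO line 3 (edgeR adjusted p = 0.197). The gene had more counts than the other 8 members together, at 58.4% to 68.3% of the members' counts in each library.

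HNRNPC binds uridine tracts that m6A can expose by loosening RNA folds. Hnrnpc (ENSMUSG00000060373.15, chromosome 14, 52073377 to 52104028) measured 256, 292.5 and 197 CPM in WT lines 3, 8 and 19 and 217, 195 and 219 CPM in KO lines 3, 13 and 16. Here the spread was in WT, where line 19 fell among the libraries labelled KO. The log2 fold change of -0.24 (SE 0.15) missed the threshold (edgeR adjusted p = 0.222), and it was -0.38 without WT line 19 (edgeR adjusted p = 0.0483) and -0.11 without WT line 8 (edgeR adjusted p = 0.617). The ratio of Hnrnpa2b1 to Hnrnpc counts was 12.9 to 16.3 in WT, 15.4 and 13.2 in KO lines 13 and 16 and 21.7 in KO line 3.

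Elavl1 (ENSMUSG00000040028.10, chromosome 8, 4285382 to 4325413) measured 154, 173 and 143 CPM in WT lines 3, 8 and 19 and 195, 153 and 147 CPM in KO lines 3, 13 and 16. KO line 3 was the highest library, and KO lines 13 and 16 fell within the WT range. On the log2 scale the fold change was 0.073 (SE 0.13, 95% interval -0.23 to 0.38, edgeR adjusted p = 0.692), and it was -0.059 without KO line 3. Its exons share 204 bases with those of Ccl25 on the opposite strand, which held 162 to 220 counts per library against 2629 to 4217 for Elavl1.

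Read across the 9 genes, KO line 3 was the highest library for 7 (Ythdf1, Ythdf2, Ythdf3, Ythdc1, Ythdc2, Hnrnpa2b1 and Elavl1), and KO line 16 was the lowest for 4 (Ythdf3, Ythdc1, Ythdc2 and Hnrnpa2b1). The matching shares over all tested genes were not counted, so these counts are not shown to be particular to the readers. Outside the members, Fmr1, Srsf1, Srsf10 and Syncrip were also highest in KO line 3, while Zc3h13 was highest in KO line 13. They were named after their values were seen, so they do not show how common either pattern is. The members took 0.66% of all counts in KO line 3 and 0.502% to 0.572% in the other libraries. Most of this total was Hnrnpa2b1, at 68.3% of the members' counts in KO line 3 and 58.4% to 66.3% elsewhere. With both WT line 19 and KO line 3 left out 5 of the 9 members were called, beside 54.2% of tested genes. At an unadjusted p under 0.05, edgeR, DESeq2 and limma-voom each gave 2 members higher and 0 lower. The share of tested genes below that unadjusted p was not counted, but at the stricter adjusted threshold it was 42.3%, 42.9% and 43.2%. KO and WT libraries did not overlap in 2 members, Prrc2a and Ythdf1, beside 54.3% of tested genes. The median log2 fold change was 0.044 over the members and 0.01 over all tested genes, and the median absolute change was 0.21 and 0.37.

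**Figure D3:**
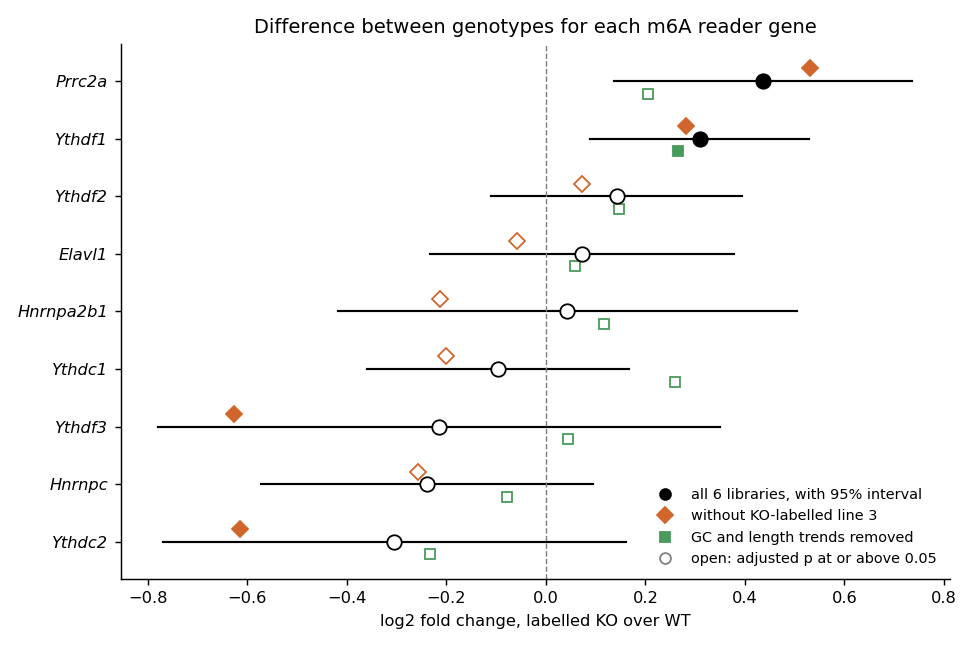
Log2 fold change of libraries labelled KO over WT for each reader, with the 95% interval from all 6 libraries in black, the value without KO line 3 as diamonds and the value with GC and length trends removed as squares; filled symbols passed an adjusted p of 0.05. Prrc2a and Ythdf1 are filled in black, and Ythdf3 and Ythdc2 move to -0.63 and -0.61 without KO line 3.

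Levels between genes were compared per kilobase of exon. In WT, Hnrnpa2b1 stood first at 521 ± 45.3 CPM per kilobase, followed by Prrc2a at 102 ± 10.2, Ythdf3 at 61.8 ± 1.84 and Hnrnpc at 57.4 ± 11.2 (SD, n = 3). Ythdf1 followed with a WT range of 21.3 to 22.9 and Elavl1 with 13.8 to 16.7, then came Ythdc1 at 11.4 ± 0.063, Ythdf2 at 11.2 ± 0.70 and Ythdc2 at 10.3 ± 0.42 CPM per kilobase. The WT ranges of Ythdf3 and Hnrnpc overlapped, as did those of Ythdc1 and Ythdf2, so their order is not fixed by these lines. In the libraries labelled KO the order of the leading 6 by mean was the same. There too the ranges of Ythdf3 (38.1 to 80.0) and Hnrnpc (45.2 to 50.7) overlapped, so their order is not fixed. Ythdf2 (12.3 ± 1.15), Ythdc1 (10.7 ± 1.45) and Ythdc2 (8.37 ± 2.86 CPM per kilobase) overlapped as neighbours. By longest transcript instead, Hnrnpc (87.2 CPM per kilobase in WT) stood above Ythdf3 (65.0), and Elavl1 (27.3) and Ythdc1 (24.7) above Ythdf1 (22.9). By mean CPM, Hnrnpa2b1 and Prrc2a lay above 99.96% and 99.55% of tested genes and Ythdf2, the lowest member, above 65.4%.

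**Figure D4:**
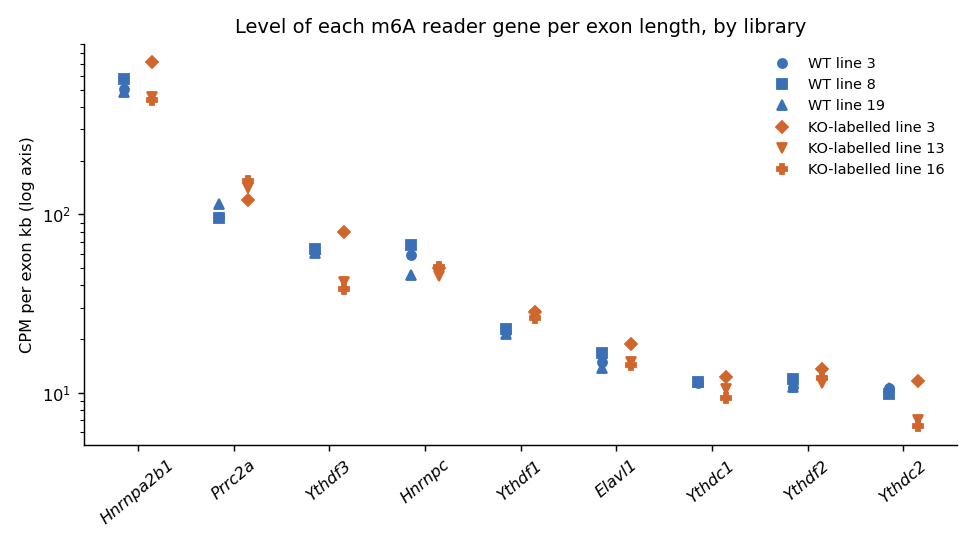
Level of each reader in CPM per kilobase of exon on a log axis, with 1 point per library, ordered by the WT mean. Hnrnpa2b1 (440 to 714 CPM per kilobase) is above all other readers, and Ythdc1, Ythdf2 and Ythdc2 lie together between 6.46 and 13.6.

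The other proteins of the m6A pathway were set beside the readers. The share called was 33.3% in the writer list and 50% of the 2 erasers, against 42.3% of all tested genes. Of 9 genes of the writer complex, 3 rose and 0 fell: Zc3h13, a scaffold that keeps the complex in the nucleus, from 189.7 ± 1.62 to 288 ± 22.9 CPM (log2 fold change 0.60, SE 0.10), Rbm15b, which helps recruit it to RNA, by 0.63 (SE 0.13), and Mettl14, the RNA-binding partner of the catalytic subunit, by 0.30 (SE 0.10, edgeR adjusted p = 0.0374). The Mettl14 call was lost without any of the WT lines or KO line 13. Mettl3, the catalytic subunit, named after its value was seen, had a log2 fold change of 0.31 (edgeR adjusted p = 0.0556). Of the 2 erasers, Fto rose, its log2 change being 0.45 (SE 0.16; adjusted p = 0.0449 in edgeR), a call lost without WT line 3, WT line 19, KO line 13 or KO line 16, and Alkbh5 did not pass (0.29, edgeR adjusted p = 0.0916).

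Among 10 other proteins reported to bind m6A RNA, 3 rose and 1 fell. The share called was 40% in this list and 40% in the list of paralogs below, near the 42.3% of all tested genes. Igf2bp1, which stabilises marked messages and is high in the fetal brain, measured 2.83 ± 0.67 CPM in WT; with KO labels it reached 84.6 ± 7.82 CPM (SD, n = 3 each; log2 fold change 4.89). Rbmx, a splicing factor that binds RNA opened by m6A, rose with a log2 change of 0.60 (SE 0.11). Eif3a, of the translation initiation factor eIF3, rose with 0.51 (SE 0.11), a call lost without WT line 3. Lrpprc, which stabilises mitochondrial messages, fell by 0.32 on the log2 scale (SE 0.10, edgeR adjusted p = 0.0252), a call that held when KO line 3 was left out and was lost without any of the other libraries. Of 10 paralogs of the readers and genes grouped with them, 4 rose and 0 fell: Hnrnpa0 (log2 fold change 0.94, SE 0.19), Prrc2b (0.39, SE 0.12), Elavl3 (0.54, SE 0.17) and Raly, a paralog of Hnrnpc (0.36, SE 0.12). The Prrc2b call was lost without WT line 3, WT line 8, KO line 13 or KO line 16, the Elavl3 call without WT line 8, WT line 19, KO line 13 or KO line 16, and the Raly call without any library other than KO line 3.

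In the CCR4-NOT deadenylase list, on which YTHDF2 depends, 4 of 13 genes rose and 2 fell. Those that fell, Btg2 and Tob1, bind the deadenylase and curb cell division, and their log2 fold changes were -1.13 (SE 0.10) and -1.22 (SE 0.13), while the subunit Cnot10 rose by 0.51 (SE 0.09). Of 8 partners of YTHDC1 in splicing and export, 2 rose and 0 fell, Nxf1 (log2 fold change 0.46, SE 0.11) and Khdrbs1 (0.37, SE 0.11, lost without WT line 3 or WT line 19), while Nxt1 did not pass (0.36, edgeR adjusted p = 0.0615). Of 19 other hnRNP genes, 12 rose and 0 fell, among them Hnrnpab (log2 fold change 0.96, SE 0.15), Ptbp1 (0.61, SE 0.10) and Hnrnpm (0.57, SE 0.10). The share called was 63.2% in that list, 46.2% in the CCR4-NOT list, 25% among the YTHDC1 partners and 22.2% among the readers. Over all tested genes it was 42.3%, and no difference between lists was tested.

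**Figure D5:**
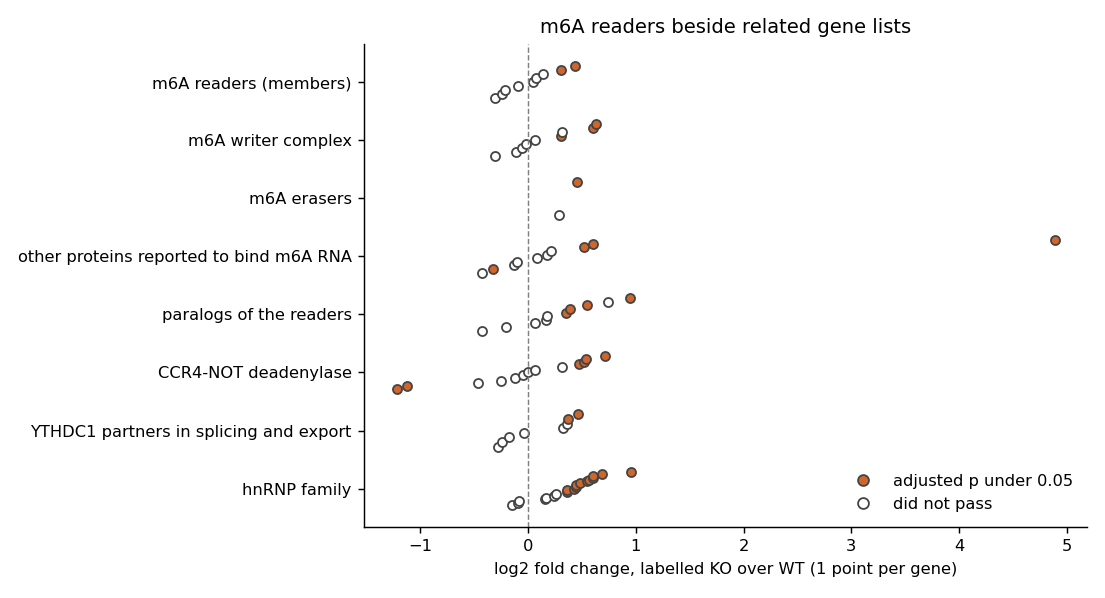
Log2 fold change of libraries labelled KO over WT for each gene of the readers and 7 related lists, with 1 point per gene and filled points for an adjusted p under 0.05. The readers lie between -0.30 and 0.44, and Igf2bp1 stands alone at 4.89.

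Cell type markers were set beside the labels, with 42.3% of all tested genes called, 21.8% higher and 20.4% lower. Among tested markers, the share called was 60% for astrocytes, 66.7% for the oligodendrocyte lineage, 42.9% for neurons and 21.4% for neural precursors. Of 10 astrocyte markers, 6 fell and 0 rose, and their sum was 650.1 to 1006 CPM in WT and 270.0 to 359 CPM in the libraries labelled KO, with Agt, Cd44 and Clu at log2 fold changes of -5.28, -2.79 and -3.68. Of 6 tested oligodendrocyte lineage markers of 8 listed, 3 rose (Pdgfra, Gpr17 and Sox10, at 4.03, 5.30 and 2.75) and 1 fell (Cnp, -0.47, named after its value was seen). Mbp, a myelin gene below the filter, had no counts in WT and 0.381 to 0.644 CPM with KO labels, and the sum of the list was 96.4 to 107 CPM in WT and 125 to 139 CPM in the libraries labelled KO. Of 7 tested neuron markers of 8, 3 rose (Dcx, Snap25 and Map2, at 4.06, 2.60 and 0.51), with a sum of 798 to 1007 CPM against 1089 to 1666 CPM. That sum was nearly all Map2, at 778 to 979.5 CPM in WT and 1048 to 1603 CPM with KO labels. Rbfox3, Tubb3, Syt1 and Syp did not pass. Among the 14 neural precursor markers, Olig2 rose (0.99) and Vim and Slc1a3 fell (-0.48 and -0.35), with a sum of 8390 to 9440 CPM in WT and 6702 to 8155 CPM in the libraries labelled KO. The 6 microglia markers summed to 0.512 to 1.34 CPM in all libraries, with Tmem119 at 0 counts and 1 tested gene, P2ry12, that did not pass (0.086). Of 6 RNAs retained in the nucleus, Neat1 rose (0.80), while Malat1 (-0.26) and Rn45s (-2.03) did not pass. The part of these markers in the differences of the readers was not tested.

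For the called members, the genes of most similar profile were sought among 8685 named genes with a mean of at least 10 CPM, by Pearson's r of log2 CPM over the 6 libraries, which share depth and scaling. For Prrc2a they were Zfp362 (r = 0.9986) and Zfp385a (r = 0.9977), and for Ythdf1 Gpr137b-ps (r = 0.9985) and Sall1 (r = 0.9968). With 6 points such values are common: 361 and 390 genes had an r above 0.95 with Prrc2a and Ythdf1.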

How the data were processed

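Nuclear RNA of 6 neural precursor lines was sequenced, 3 of each genotype. The files deposited by the authors hold whole-number counts for each gene symbol, not normalized. The tools named in the submitters' processing notes are HTSeq 0.7.2, STAR, DESeq2 and cutadapt 1.14, on build mm10; no source used here gives the annotation, the strand setting or what each tool did. Per the labels' protocols, a kit separated the nuclei and preparations were kept by RT-qPCR of U1 and beta-actin.

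From these counts, genes passing filterByExpr were scaled by TMM and tested with edgeR 4.0.16 (robust quasi-likelihood, R 4.3.3, two-sided, Benjamini-Hochberg over 13925 genes, threshold 0.05). SEs come from the F statistic. One count was worth 0.0366 to 0.0542 CPM. Positions, exon lengths and GC content are from GENCODE M21 (GRCm38). YTHDF shares were compared with an exact permutation test. Members and lists were chosen with earlier results of these data known; 6 list genes were matched through older symbols. All members were named; up to 3 genes of each other list by p-value, and called genes of the m6A and paralog lists, were named. No label says whether lines came from separate animals, so p-values set the genotype difference against the spread between lines, and no batch is labelled. The fit was tested on simulated counts in which 200 of 13925 genes changed, far fewer than were called here. It recovered 23.9% of 1.5-fold, 74.6% of 2-fold and 97% of 4-fold changes, with 3.7% of its calls false. With so few changed genes the adjustment of p-values is stricter, so these rates do not give the recovery in the real comparison. Missing the threshold does not by itself show that a member was unchanged.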

Additional observations from a re-analysis of the deposited data

How the results depend on the processing

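The call of Prrc2a and Ythdf1 held under DESeq2 1.42.0 or upper-quartile size factors, library size alone, both other filters on low counts, the DESeq2 Wald test, limma-voom (limma 3.58.1), Xist state as a covariate (high from 1000 CPM) and a threshold of 0.10. The number of members called, 2 with all libraries, was 1 with GC and length trends removed (Ythdf1; 52.6% of all genes called), 1 without Rn45s, Xist, ribosomal protein, histone and small RNA genes (Prrc2a; 42.3%), and 5 with both WT line 19 and KO line 3 left out (3 of them lower: Ythdf3, Ythdc2 and Hnrnpc; 54.2%). Leaving out 1 library gave 0 to 4 members called, 0 to 2 higher and 0 to 2 lower, with 30.4% to 53.7% of all genes called. It was 0 in edgeR without WT line 3, WT line 8 or KO line 13, beside 30.4%, 31.5% and 31.2% of all genes. There 0, 2 and 2 members had an unadjusted p under 0.05, a threshold at which the share of all genes was not counted. Signs turned for Hnrnpa2b1 (-0.012 without the abundant genes above, -0.26 without WT line 19 and KO line 3, -0.21 to 0.17 when 1 library was left out, negative without KO line 3 or, at -0.006, WT line 19), for Elavl1 (-0.12 without WT line 19 and KO line 3, -0.059 to 0.16 when 1 library was left out, negative without KO line 3), and for Ythdf3 (0.045) and Ythdc1 (0.26) once GC and length trends were taken out; the cause was not tested. Prrc2a stayed between 0.21 and 0.61 and Ythdf1 between 0.26 and 0.35 on the log2 scale. The count over all genes stayed within 1.5 times of 5884. The YTHDF shares kept their direction with other length choices and with 1 library left out. They were not recomputed with GC and length trends removed, the setting in which the sign of Ythdf3 turned. No paired analysis was possible because the genotypes share only 1 line number.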
